A study of Mus musculus with 24 samples.

Results

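The genes described here are 9 components of transforming growth factor beta (TGF-beta) signaling: the ligand genes Tgfb1, Tgfb2 and Tgfb3, the activin subunit gene Inhba, the receptor genes Tgfbr1 and Tgfbr2, the latent TGF-beta binding protein genes Ltbp1 and Ltbp2, and the inhibitor gene Smad7. They were taken by gene symbol from a count table of 54532 genes, all 9 passed the limit on expression, and 22570 genes in all were tested. RNA-seq was performed on whole kidneys of 24 mice killed at 18 days of age, 1 library per mouse, labelled C57BL/6 and given as C57BL/6 J in the study's methods. The study asked whether removing a miR-17 binding motif from the 3′ UTR of Pkd1, the polycystic kidney disease gene that encodes polycystin-1, blunts gene expression changes of the cystic kidney.

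All mice carried the RC allele of Pkd1, a hypomorphic missense allele. RC/+ mice (n = 3), labelled control, had a floxed but intact second allele. RC/- mice (n = 5), labelled cystic, had that allele deleted by Ksp-Cre, a transgene active in kidney tubule epithelium, so the cystic genotype and the presence of Cre cannot be told apart. In RC/+ D18 (n = 3), RC/- D18 (n = 5), RC/+ D53 (n = 3) and RC/- D53 (n = 5) mice the RC allele also lacked the miR-17 motif. Each edited line descends from 1 founder, labelled founder 3 for D18 and founder 2 for D53, so the edit and the line cannot be told apart. RC/+ and RC/- mice without an edit are called unedited below.

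TGF-beta ligands are secreted in a latent complex with their own propeptide and a latent TGF-beta binding protein that anchors them to the matrix. Once released, a ligand dimer binds the type II receptor encoded by Tgfbr2, which phosphorylates the type I receptor encoded by Tgfbr1, and this receptor phosphorylates Smad2 and Smad3. The pathway is best known in the kidney for fibroblast activation and matrix deposition. Smad7 is induced by the pathway and feeds back on the receptors. Activin A, a dimer of the Inhba product, signals through its own receptors to the same Smads.

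The miR-17 seed match and the Smad box were searched in these genes, and sequences are shown next. miR-17 and 6 other mouse miRNAs in RefSeq share the seed in capitals (bases 2 to 8), and the letters GCACTTT in a 3′ UTR pair with it.
mmu-miR-17-5p: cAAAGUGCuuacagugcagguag
Of the 9 genes, Tgfbr2 and Smad7 have such a match in the 3′ UTR and the other 7 have none, against 11.8% of the 21020 genes with an annotated 3′ UTR. The Tgfbr2 match lies at chr9:116090074-116090080 (GRCm38, minus strand), in exon 8 of 8, and is printed with its flanks and the match in capitals.
Tgfbr2 3′ UTR site: caataacgtttGCACTTTattaatgcctgt
The edits were made in the 3′ UTR of Pkd1, and these matches lie in other genes.

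The Smad box, the letters CAGAC on either strand, was searched in the RefSeq promoters (GRCm38.p6, 250 bases before to 50 after the start) and is present in 49.6% of the 32851 promoters. The promoters of the 2 genes with the largest fold differences in the unedited comparison and that of Tgfb1 are shown 5′ to 3′ on the gene's strand, with each box in capitals.
Ltbp2 promoter, chr12:84876442-84876741, minus strand: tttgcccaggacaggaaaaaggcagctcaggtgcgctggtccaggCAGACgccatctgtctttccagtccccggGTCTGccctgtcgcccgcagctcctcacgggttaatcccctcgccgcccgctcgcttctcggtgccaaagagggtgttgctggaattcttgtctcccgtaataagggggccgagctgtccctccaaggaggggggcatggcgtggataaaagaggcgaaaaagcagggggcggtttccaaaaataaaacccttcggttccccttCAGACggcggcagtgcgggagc
Tgfb2 promoter, chr1:186705940-186706239, minus strand: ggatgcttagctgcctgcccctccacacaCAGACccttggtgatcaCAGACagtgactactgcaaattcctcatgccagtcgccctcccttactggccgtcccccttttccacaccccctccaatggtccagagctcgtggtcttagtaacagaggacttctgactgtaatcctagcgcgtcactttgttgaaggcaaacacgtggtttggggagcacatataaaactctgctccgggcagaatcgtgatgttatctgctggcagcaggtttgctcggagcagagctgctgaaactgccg
Tgfb1 promoter, chr7:25686752-25687051, plus strand: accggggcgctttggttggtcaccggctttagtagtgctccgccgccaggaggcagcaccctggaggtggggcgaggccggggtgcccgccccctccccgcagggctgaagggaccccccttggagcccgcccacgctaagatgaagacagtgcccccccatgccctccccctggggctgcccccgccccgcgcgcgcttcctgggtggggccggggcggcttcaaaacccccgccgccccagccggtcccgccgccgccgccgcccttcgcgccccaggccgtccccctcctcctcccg
The Ltbp2 window holds 3 boxes, the Tgfb2 window 2 and the Tgfb1 window 0. The Tgfbr2 window holds 1 and the Inhba window 0. Ltbp1 and Tgfbr1 have 2 listed promoters each, with 1 and 2 boxes for Ltbp1 and 0 and 1 for Tgfbr1. The AP-1 motif TGANTCA, present in 7.81% of all promoters, is in none of these windows, nor is the palindrome GTCTAGAC, present in 0.213%. A match is a description of the letters and not evidence of binding.

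Library totals were 20379982 to 30837488 counts, and the 9 genes were covered by 22 to 7536 counts per library. Markers of proximal tubule, loop of Henle, collecting duct and podocytes were detected in every library. The 8 libraries numbered 20 to 27 (every RC/- D53 kidney and replicates 20 to 22 of RC/- D18) held 178 to 235 CPM (counts scaled to 1000000 per library) of 10 skeletal muscle genes, against 10.4 to 25.4 CPM in the other 16. Pkd1 itself had group means of 50.7 to 61.7 CPM, and its count does not separate the alleles. Counts for Tgfb3, Ltbp2 and Tgfb2 may include reads of genes on the opposite strand that overlap 12.4%, 9.34% and 2.14% of their exon bases, because the strand setting of the count is not given in the sources used here.

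In unedited kidneys the cystic genotype came with higher transcript levels of 7 of the 9 genes, as the plot of all libraries shows. Ltbp2 was 9.07-fold, Tgfb2 4.52-fold, Inhba 3.45-fold and Tgfb3 3.28-fold higher in RC/- than in RC/+, Tgfbr2 and Tgfbr1 were 2.15-fold and 1.79-fold higher, and Tgfb1 was 1.34-fold higher. Ltbp1 and Smad7 did not pass the test. The test was limma-trend on log2 CPM in one model of all 24 libraries, with Benjamini-Hochberg adjustment over all genes, and a gene passed at an adjusted p below 0.05. The comparison called 37.6% of all genes tested, and 25.5% as higher. The libraries of the 2 groups did not overlap for the same 7 genes, as for 37.6% of all genes. The median log2 fold change was 1.10 over the 9 genes and 0.14 over all genes. With TMM factors, which set the median of all genes to 0.01, 6 genes were higher and 1, Ltbp1, was lower, and over all genes the calls moved from 5753 higher and 2744 lower to 3862 and 3886. In bulk tissue, more cells of a type and more RNA per cell cannot be told apart.

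**Figure D1:**
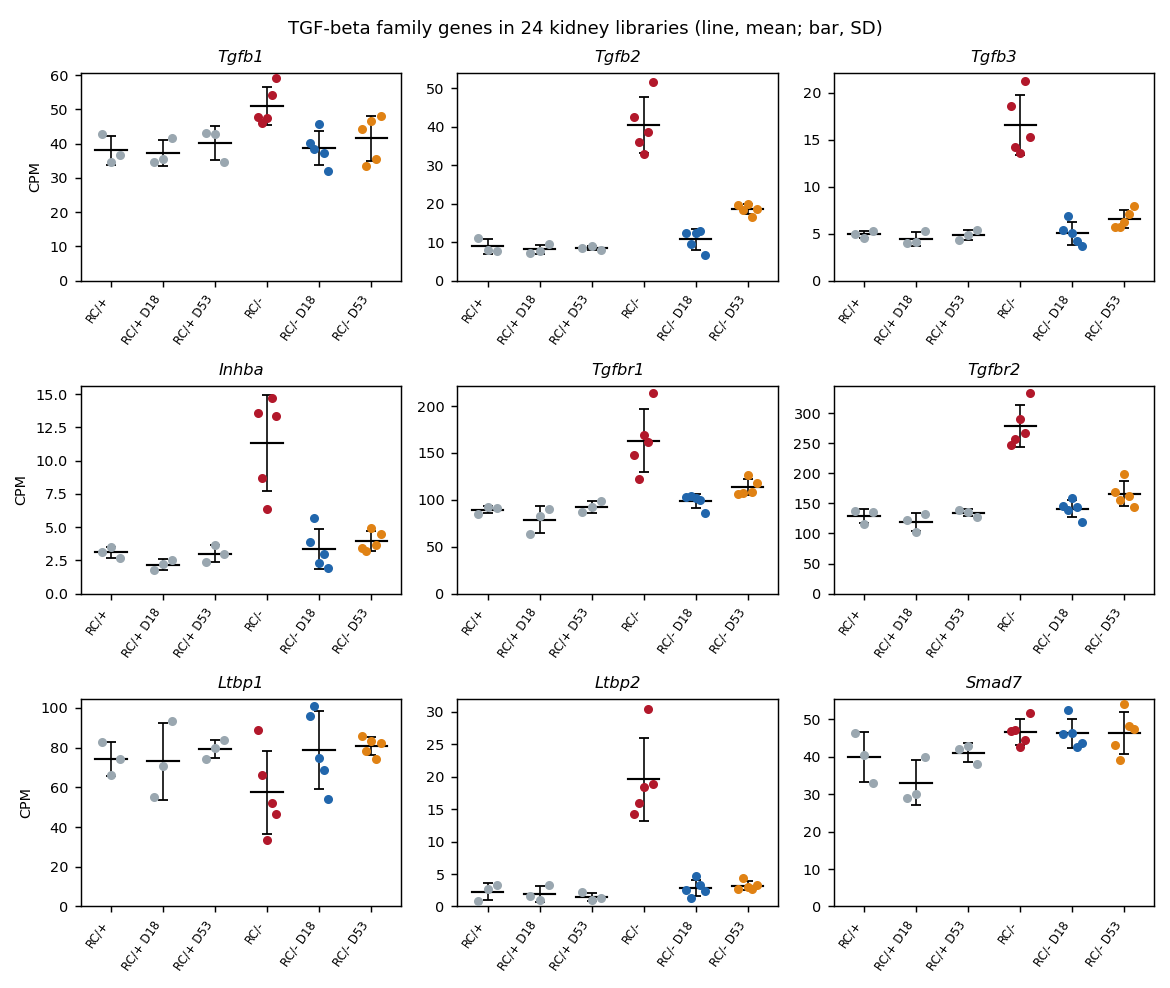
CPM (counts scaled to 1000000 per library) of each of the 9 genes on the y axis, with 1 point per kidney in the 6 groups on the x axis, the group mean as a line and the SD as a bar. The 5 RC/- kidneys lie above all others for Tgfb2, Tgfb3, Inhba, Ltbp2 and Tgfbr2, while RC/- overlaps RC/+ for Ltbp1 and Smad7.

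Among the ligands, Tgfb2 (chr1:186622792-186705989), the isoform gene with prominent roles in embryonic organ formation, had the lowest adjusted p of the 9 in RC/- against RC/+. Its level was 11.2, 7.92 and 7.63 CPM in the RC/+ kidneys and 42.7, 35.9, 33.0, 38.6 and 51.7 CPM in the RC/- kidneys. In RC/- D18 it was 12.5, 9.44, 12.5, 12.98 and 6.68 CPM. In RC/- D53 it was 19.7, 18.4, 19.9, 16.5 and 18.6 CPM. Thus the lowest RC/- kidney exceeded every kidney of the other groups, and every RC/- D53 kidney lay above every RC/- D18 kidney and below every RC/- kidney. The cystic difference was 2.18 ± 0.18 on the log2 scale (SE, adjusted p = 1.56e-09, limma-trend). The RC/+ D18 and RC/+ D53 kidneys held 7.27 to 9.55 CPM, within or just below the range of RC/+.

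Tgfb3 (chr12:86056745-86079041), a ligand gene known for its role in palate closure, had a mean of 1.46 CPM per kilobase of exon in RC/+, beside 1.54 CPM per kilobase for Tgfb2. It measured 4.94, 4.56 and 5.34 CPM in RC/+ and 18.6, 14.3, 13.6, 21.2 and 15.3 CPM in RC/-. The difference of 1.71 ± 0.18 on the log2 scale (SE, adjusted p = 5.1e-08, limma-trend) separated all RC/- kidneys from every other kidney. The range was 3.73 to 6.85 CPM for RC/- D18 and 5.71 to 7.94 CPM for RC/- D53, so the cystic edited groups overlapped each other.

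Tgfb1 (chr7:25687002-25705077), the isoform gene most often studied in renal fibrosis, had the smallest difference of the genes that passed. Its level was 42.8, 34.8 and 36.6 CPM in RC/+ and 47.8, 46.1, 47.5, 54.1 and 59.2 CPM in RC/-, a gap between the groups of only a few CPM. The log2 fold change was 0.42 ± 0.13 (SE, adjusted p = 0.0104, limma-trend) and 0.28 relative to the median of all genes. It passed in 30 of 35 settings. Among those in which it did not pass were TMM factors (0.28, adjusted p = 0.0646), the edgeR quasi-likelihood test (0.28, adjusted p = 0.0645) and the fit without RC/+ replicate 5 (0.36, adjusted p = 0.0651). In the 4 other groups Tgfb1 ranged from 32.2 to 48.0 CPM and overlapped RC/+.

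Because Tgfb2 and Tgfb3 differed more than Tgfb1, the makeup of the ligand transcripts differed between groups. On the scale of CPM per kilobase of exon, the sum of the 3 ligand genes was 10.5 ± 1.18 in RC/+ (SD, n = 3) and 21.98 ± 2.6 in RC/- (SD, n = 5). Tgfb1 took 71.6% ± 0.161 of that sum in RC/+ and 46.1% ± 2.49 in RC/-. Tgfb2 took 14.5% ± 1.63 and 31.6% ± 2.82, and Tgfb3 took 13.96% ± 1.63 and 22.3% ± 3.33. Tgfb1 remained the most abundant ligand transcript per length in every group. Its share for RC/- D18 was 67.6% to 73.9%, overlapping the 69.6% to 75.6% of the noncystic kidneys. Its share for RC/- D53 was 57.7% to 63.7%, between those of RC/- and RC/- D18 with no overlap, while Tgfb2 held 21.3% to 27.6%. These shares are a description and were not tested.

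**Figure D2:**
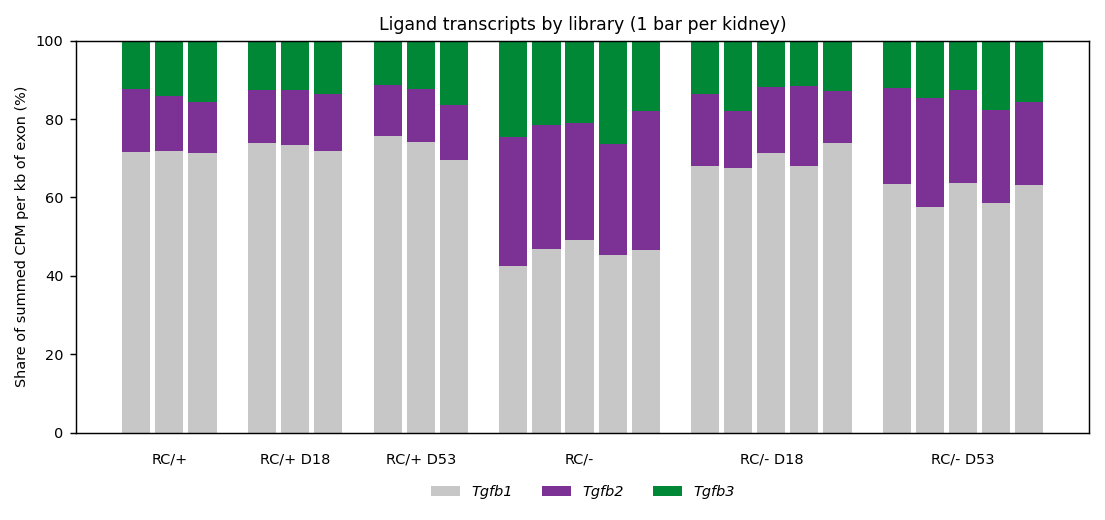
Each bar is 1 kidney and stacks the shares of Tgfb1, Tgfb2 and Tgfb3 in their summed CPM per kilobase of exon (y axis, percent), with kidneys grouped along the x axis. Tgfb1 takes 42.4% to 49.3% in RC/- kidneys and at least 57.7% in every other kidney.

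Inhba (chr13:16011851-16031621), which encodes the beta A subunit of activin, had a mean of 0.485 CPM per kilobase of exon in RC/+. It measured 3.14, 3.49 and 2.65 CPM in RC/+ and 13.6, 8.66, 6.36, 14.7 and 13.4 CPM in RC/-. The RC/- kidneys varied among themselves, with replicates 14 and 15 lowest, but all exceeded every other kidney, and the difference was 1.78 ± 0.29 on the log2 scale (SE, adjusted p = 2.48e-05, limma-trend). RC/- D18 held 1.92 to 5.70 CPM and RC/- D53 3.18 to 4.91 CPM.

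The latent TGF-beta binding protein genes diverged. Ltbp2 (chr12:84783212-84876532), whose product binds fibrillin microfibrils and, unlike Ltbp1, does not carry latent TGF-beta, ranked 56 of 22570 genes by log2 fold change. It measured 0.898, 2.70 and 3.29 CPM in RC/+ and 14.2, 15.96, 18.4, 30.5 and 18.9 CPM in RC/-, from 22 to 82 counts and from 333 to 726 counts. In RC/- D18 it was 2.54, 1.29, 4.67, 3.29 and 2.42 CPM, and in RC/- D53 it was 2.76, 4.32, 3.04, 2.66 and 3.32 CPM. Every RC/- kidney was thus above every other kidney, and the noncystic libraries varied among themselves by more than for any other gene described here, with a coefficient of variation of 41.4% to 62.5% within groups. The log2 fold change was 3.18 ± 0.40 (SE, adjusted p = 9.17e-07, limma-trend).

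Ltbp1 (chr17:75005568-75392512), whose product anchors the latent ligand in the matrix, was not higher in cystic kidneys. It measured 83.0, 66.0 and 74.1 CPM in RC/+ and 88.6, 66.4, 33.3, 52.1 and 46.6 CPM in RC/-. Replicate 13 of RC/- was above all RC/+ kidneys and 3 of the other RC/- kidneys were below them. The log2 fold change of -0.44 ± 0.22 did not pass (SE, adjusted p = 0.117, limma-trend), whereas it passed with TMM factors (-0.58, adjusted p = 0.0274), in the edgeR quasi-likelihood test (-0.52, adjusted p = 0.0477) and without RC/- replicate 13 (-0.62, adjusted p = 0.0158). RC/- D18 kidneys held 95.8, 101, 74.9, 68.6 and 54.0 CPM, with the highest values in replicates 18 and 19, the 2 that lack the muscle genes. The RC/- D53 kidneys lay within 74.4 to 86.0 CPM.

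Both receptor genes were higher in cystic kidneys. Tgfbr2 (chr9:116084293-116175360), for the ligand-binding type II receptor, measured 137, 116 and 136 CPM in RC/+ and 246, 257, 290.0, 267 and 333 CPM in RC/-. Every RC/- kidney exceeded every other kidney, and the log2 fold change was 1.10 ± 0.11 (SE, adjusted p = 2.18e-08, limma-trend), the smallest error of the 9 genes. Tgfbr2 is also one of the genes that carry the seed match shown above. Tgfbr1 (chr4:47353222-47414931), for the type I receptor kinase, measured 85.01, 92.9 and 91.1 CPM in RC/+ and 148, 123, 169, 161 and 214 CPM in RC/-. Here replicate 14 of RC/-, at 123 CPM, lay below the highest RC/- D53 kidney at 127 CPM. The log2 fold change was 0.84 ± 0.12 (SE, adjusted p = 8.32e-06, limma-trend). Per kilobase of exon the receptor transcripts were more abundant than any ligand transcript, at 15.8 ± 1.44 CPM for Tgfbr2 and 13.7 ± 0.629 CPM for Tgfbr1 in RC/+ (SD, n = 3).

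Smad7 (chr18:75367529-75395935), the inhibitory Smad gene, was nearly level across the cystic groups. It measured 46.4, 40.5 and 32.9 CPM in RC/+ and 47.0, 47.3, 42.6, 44.3 and 51.6 CPM in RC/-, with overlap. The log2 fold change was 0.23 ± 0.11 (SE, adjusted p = 0.117, 95% interval -0.0042 to 0.47, limma-trend), and it was 0.35 without RC/+ replicate 4 (adjusted p = 0.0362). The mean over the 5 RC/- kidneys was 46.6 ± 3.41 CPM, beside 46.3 ± 3.86 CPM for RC/- D18 and 46.4 ± 5.62 CPM for RC/- D53 (SD).

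Deletion of the miR-17 motif came with lower levels of most of these genes in cystic kidneys. In RC/- D18 against RC/- the test called 8 of the 9 genes, 7 lower and 1 higher, where 41.2% of all genes were called and 26.9% were lower. In RC/- D53 against RC/- it called the same 8, again 7 lower and Ltbp1 higher, where 30.2% of all genes were called and 18.9% were lower. Both comparisons use the same 5 RC/- kidneys as the comparison above, so an RC/- value that happens to lie high enters all of them. Their median log2 fold changes over the 9 genes were -0.98 for D18 and -0.75 for D53, beside -0.10 and -0.08 over all genes. With TMM factors the split over all genes moved from 3238 higher and 6067 lower to 4414 and 4435 for D18 and from 2543 and 4262 to 3301 and 3021 for D53, while the 9 genes had 7 lower and 1 higher for D18 and 6 lower and 1 higher for D53. The count for D53 was 5 (Tgfb2, Tgfb3, Tgfbr2, Ltbp1 and Ltbp2) with the libraries that hold muscle genes as a covariate, where the calls over all genes also fell, from 6805 to 1796 of 22570. Every RC/- D53 kidney and no RC/- kidney belongs to those libraries, so the D53 edit and that set of libraries cannot be told apart here.

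In the D18 line the largest falls were in Ltbp2 and 3 ligand genes. Ltbp2 fell by 2.81 ± 0.35 on the log2 scale, Tgfb2 by 1.92 ± 0.15, Inhba by 1.77 ± 0.25 and Tgfb3 by 1.71 ± 0.15 (SE, adjusted p from 1.17e-09 to 3.7e-06, limma-trend). The receptor genes fell less, Tgfbr2 by 0.98 ± 0.09 and Tgfbr1 by 0.70 ± 0.11. Tgfb1 fell by 0.40 ± 0.11 (SE, adjusted p = 0.00512). Ltbp1 rose by 0.50 ± 0.19 (SE, adjusted p = 0.0379), a call that was lost in 8 of 34 alternatives, among them the fit of only these groups (adjusted p = 0.114), and it was 0.85 with libraries 20 to 27 as a covariate, where Tgfb1 did not pass (-0.37, adjusted p = 0.0669). Smad7 differed by -0.0085, with a 95% interval of -0.21 to 0.20.

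In the D53 line the same 4 genes had the largest falls. Ltbp2 fell by 2.55 ± 0.35, Inhba by 1.46 ± 0.25, Tgfb3 by 1.32 ± 0.15 and Tgfb2 by 1.10 ± 0.15 (SE, adjusted p from 6.38e-07 to 7.99e-05, limma-trend). Tgfbr2 fell by 0.75 ± 0.09 and Tgfbr1 by 0.50 ± 0.11. Tgfb1 had a log2 difference of -0.30 ± 0.11 (SE, adjusted p = 0.0378), which did not pass with TMM factors (-0.22, adjusted p = 0.109). Ltbp1 rose by 0.57 ± 0.19 (SE, adjusted p = 0.0247), and Smad7 differed by -0.0091 (95% interval -0.21 to 0.20). With libraries 20 to 27 as a covariate Inhba (-0.48, adjusted p = 0.487) and Tgfbr1 (-0.38, adjusted p = 0.242) did not pass, Tgfb3 was -0.83 and Ltbp1 was 1.16.

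Within each edited line, cystic and noncystic kidneys were compared directly, with no library shared with the unedited pair. In RC/- D18 against RC/+ D18 limma-trend called 0 of the 9 genes, where 0.266% of all genes were called. At an unadjusted p below 0.05 there were 3 (Tgfbr1, Tgfbr2 and Smad7), edgeR called 0 and DESeq2 called 1, Smad7. The 95% intervals of the log2 fold change were -0.0041 to 0.73 for Tgfb2, -0.20 to 0.53 for Tgfb3 and -0.24 to 1.41 for Ltbp2. For Smad7 every RC/- D18 kidney (42.7 to 52.6 CPM) was above every RC/+ D18 kidney (29.1, 30.2 and 39.9 CPM), a separation whose share over all genes was not counted. The Smad7 log2 difference was 0.50 ± 0.11 (SE, adjusted p = 0.0682, limma-trend). Without RC/+ D18 replicate 9 it was 0.64 (adjusted p = 0.0149), and without RC/+ replicate 6 it was 0.50 (adjusted p = 0.0455).

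In RC/- D53 against RC/+ D53 the test called 1 of the 9 genes, Tgfb2, where 2.6% of all genes were called. Tgfb2 was 8.56, 9.0 and 8.0 CPM in RC/+ D53, below all 5 RC/- D53 kidneys, and the log2 fold change was 1.12 ± 0.18 (SE, adjusted p = 0.000419, limma-trend). That is a 2.17-fold difference, and it passed in all 34 settings run, with log2 fold changes of 1.0744 to 1.1967. Every RC/- D53 kidney and no RC/+ D53 kidney belongs to libraries 20 to 27. Within this line the cystic genotype and that set of libraries therefore cannot be told apart in any setting. Only RC/- D18 holds libraries inside and outside that set. Libraries did not overlap for 5 of the 9 genes (Tgfb2, Tgfb3, Tgfbr1, Tgfbr2 and Ltbp2, all higher in RC/- D53), as for 11.6% of all genes. Ltbp2 had a log2 difference of 1.11 ± 0.40 that did not pass (SE, adjusted p = 0.178) and passed when only these groups were fitted (adjusted p = 0.0239), while it was 0.26 with libraries 20 to 27 as a covariate (adjusted p = 0.878). In that setting Inhba moved from 0.39 to 1.36, Tgfb3 from 0.42 to 0.90 and Ltbp1 from 0.03 to 0.62, and none of these passed (adjusted p = 0.0835, 0.0809 and 0.345). Tgfb1 and Ltbp1 differed by 0.04 and 0.03 on the log2 scale, with changing sign among the scalings.

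**Figure D3:**
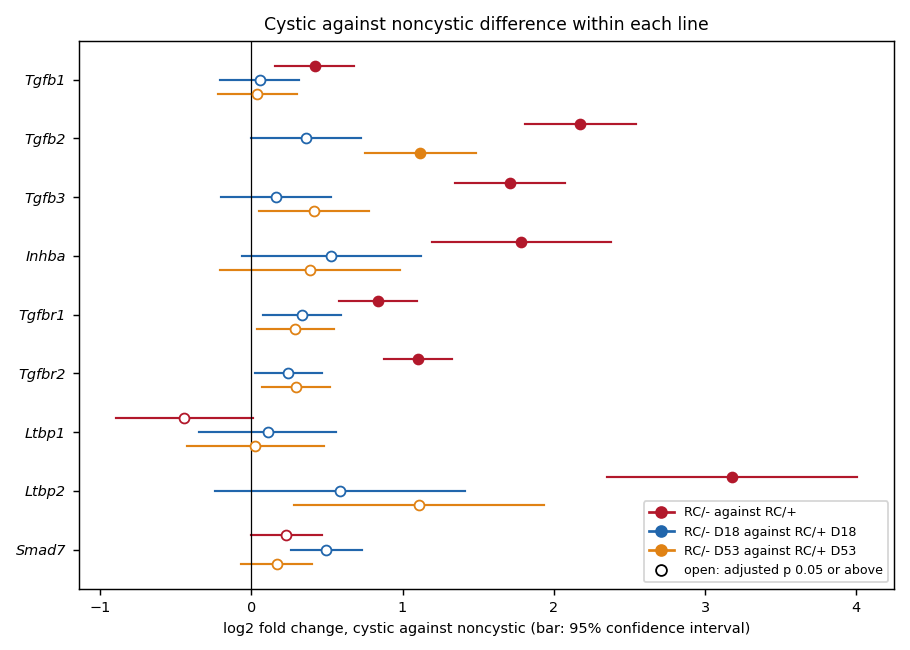
Log2 fold change of cystic against noncystic kidneys (x axis) for each gene (y axis) in the unedited, D18 and D53 lines, with 95% confidence intervals as bars and filled points where the adjusted p was below 0.05. In the edited lines Tgfb2 in D53, at 1.12, is the one filled point, while 7 genes are filled in the unedited line.

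The cystic groups of the 2 edited lines differed in Tgfb2. RC/- D53 exceeded RC/- D18 by 0.82 ± 0.15 on the log2 scale (SE, adjusted p = 0.0163, limma-trend), which made it the 1 gene of the 9 called where 0.266% of all genes were called. Libraries did not overlap for Tgfb2 and Tgfbr1, as for 2.74% of all genes, but Tgfbr1 did not pass (0.20 ± 0.11, adjusted p = 0.436). Between the libraries numbered 20 to 27, which all have the higher muscle gene sums, the Tgfb2 difference was 0.85 (adjusted p = 0.0801), and with those libraries as a covariate it was 0.85 (adjusted p = 0.033). It also missed the threshold without RC/- D18 replicate 19 (0.78, adjusted p = 0.0502), without RC/- D53 replicate 25 (0.79, adjusted p = 0.0636) and when only these groups were fitted (0.82, adjusted p = 0.0538).

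Without the cystic genotype, no difference between edited and unedited kidneys passed the test. In RC/+ D18 against RC/+ limma-trend called 0 of 9, where 0.00443% of all genes (1 gene) were called, and in RC/+ D53 against RC/+ it called 0 of 9, where 0% were called. At an unadjusted p below 0.05 there was 1 gene in the D18 comparison, Smad7, and 0 in the D53 comparison, and edgeR and DESeq2 called 0 in both. Inhba was lower in all RC/+ D18 kidneys (1.74, 2.20 and 2.54 CPM) than in RC/+, and the log2 difference was -0.51 ± 0.32 (SE, adjusted p = 0.983). How many of all genes separate between these small groups was not counted.

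Interaction contrasts tested whether the cystic difference in an edited line equalled that in the unedited line. For D18, 5 of the 9 genes passed, all with a smaller cystic difference in the edited line, where 17.1% of all genes passed. They were Ltbp2 (-2.59 ± 0.57), Tgfb2 (-1.81 ± 0.25), Tgfb3 (-1.55 ± 0.25), Inhba (-1.26 ± 0.41) and Tgfbr2 (-0.86 ± 0.15) on the log2 scale (SE). Tgfbr1 had an adjusted p of 0.0502 (limma-trend). For D53, 6 of the 9 passed, these 5 and Tgfbr1 (-0.55 ± 0.18, adjusted p = 0.044), where 11.3% of all genes passed. With libraries 20 to 27 as a covariate the D53 count was 1, Ltbp2, where calls over all genes fell from 2545 to 403 of 22570, and all RC/- D53 kidneys belong to those libraries. With TMM factors 5 passed for each line, and the split over all genes moved from 1424 higher and 2434 lower to 1874 and 1781 for D18 and from 1067 and 1478 to 1429 and 1015 for D53. Inhba and Tgfbr1 sat close to the threshold and lost or gained the call when single libraries were left out.

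Ranked by group mean, RC/- came first for 8 of the 9 genes and last for Ltbp1. For Tgfb2, Tgfb3, Inhba, Tgfbr2 and Ltbp2 the libraries of RC/- did not overlap those of the next group, RC/- D53, whereas for Tgfb1, Tgfbr1 and Smad7 they did. The share of all genes separated between these 2 groups was not counted, and 30.2% of all genes were called between them. RC/- D53 also stood clear of RC/- D18, the group after it, for Tgfb2 and Tgfbr1, as for 2.74% of all genes. All lower neighbours in the order overlapped for every gene, as did all neighbours for Ltbp1.

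Other genes of the pathway were counted from 5 lists, beside 5753 higher and 2744 lower of all 22570 genes in RC/- against RC/+. Of 25 commonly cited target genes, 21 were higher in RC/- than in RC/+, 0 lower and 4 did not pass, with a median log2 fold change of 1.01 beside 0.14 over all genes. With TMM factors 18 target genes were higher and 0 lower. Timp1, a matrix metalloproteinase inhibitor gene, rose from 1.15 ± 0.268 CPM (SD, n = 3) to 19.9 ± 7.63 CPM (SD, n = 5). In RC/- D18 and RC/- D53 against RC/-, 22 and 23 of the 25 were lower and 0 higher (21 and 20 lower with TMM factors). Over all genes, 26.9% and 18.9% were lower in these comparisons. Within the edited lines, 0 of 25 passed for D18, and 3 passed for D53, Timp1 (log2 fold change 1.36 ± 0.36), Junb (0.76 ± 0.16) and Sphk1 (0.59 ± 0.12), named after their values were seen. Over all genes, 0.266% were called within the D18 line and 2.6% within the D53 line. Ccn2, a target gene for a matricellular protein, had a value of 0.04 in the D53 line that did not pass.

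Of 20 genes for the latent complex and its activation, 13 were higher, 1 lower and 6 did not pass in RC/- against RC/+ (9 higher and 2 lower with TMM factors), with a median of 0.51. Thbs1, for thrombospondin-1, which can activate latent TGF-beta, rose by 1.34 ± 0.12 on the log2 scale, and Mmp14, for a membrane matrix metalloproteinase, rose by 1.28 ± 0.15. Itgb8, for the integrin subunit that presents latent TGF-beta, fell from 141 ± 11.95 CPM (SD, n = 3) to 75.4 ± 9.16 CPM (SD, n = 5), and its mean was 164 ± 11.99 CPM for RC/- D18 and 135 ± 12.5 CPM for RC/- D53 (SD over 5 kidneys). Within the edited lines 1 of 20 was called for D18 and 0 for D53, where 0.266% and 2.6% of all genes were called. The gene called for D18 was the integrin alpha V gene Itgav (0.35 ± 0.07, adjusted p = 0.045, limma-trend, named after its value was seen). Itgav was not called with TMM factors.

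Of 19 Smad genes and Smad regulators, 10 were higher, 1 lower and 8 did not pass (9 higher and 2 lower with TMM factors), with a median of 0.35. Tgif1, for a Smad corepressor, rose by 1.03 ± 0.16, Smad1, for a Smad of the BMP branch, rose by 0.67 ± 0.10, and Smad9, of the same branch, fell by 1.47 ± 0.25 on the log2 scale. Of 12 other receptors and co-receptors, 4 were higher, 2 lower and 6 did not pass, with a median of 0.18, which is close to the shares and the median over all genes. With TMM factors 3 of these receptor genes were higher and 2 lower. Acvrl1 (0.44 ± 0.12) and Acvr1 (0.41 ± 0.11) rose, both type I receptor genes, while Bambi, for a decoy receptor, fell by 0.61 ± 0.22 and Acvr1b, for the activin type I receptor, by 0.30 ± 0.10. Of 23 activin, BMP and antagonist genes tested, 7 were higher, 1 lower and 15 did not pass (7 higher and 4 lower with TMM factors), with a median of 0.13, beside 25.5% higher and a median of 0.14 over all genes. Inhbb, for the other activin beta subunit, rose from 3.02 ± 1.10 to 15.3 ± 3.83 CPM, Gdf15, a stress-induced family member, rose from 14.01 ± 5.48 to 59.6 ± 16.2 CPM, and Sostdc1, for a BMP antagonist, fell from 273 ± 15.5 to 121 ± 23.1 CPM (SD, n = 3 and n = 5). Within the D53 line Gdf15 was the 1 gene of these 3 lists that passed (1.46 ± 0.20, adjusted p = 9.07e-05, limma-trend), and 0 passed within the D18 line. Over all genes, 2.6% passed within the D53 line and 0.266% within the D18 line.

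**Figure D4:**
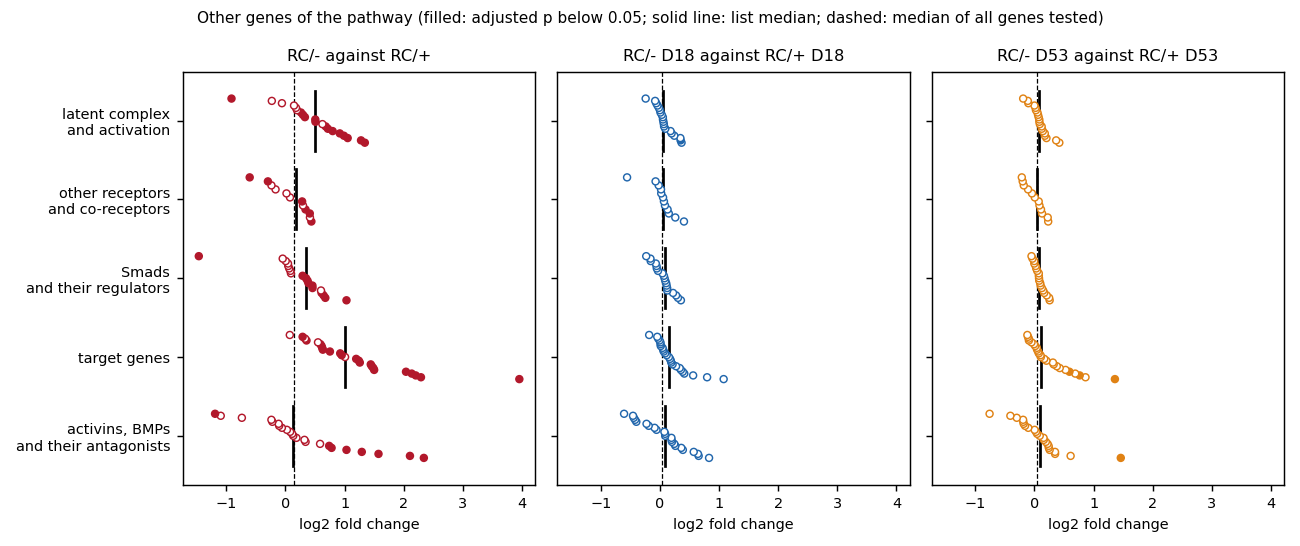
Log2 fold change of cystic against noncystic kidneys (x axis) for the genes of 5 pathway lists (y axis, 1 point per gene) in the unedited, D18 and D53 lines. Filled points passed at an adjusted p below 0.05, solid lines mark list medians and the dashed line marks the median of all genes, and the target genes have the highest list median in the unedited line at 1.01.

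Markers of other cell types moved with these differences. Of 15 fibroblast and mural cell markers 9 were higher in RC/- than in RC/+ and 0 lower, and their summed level was 1953 to 2631 CPM in RC/+, 3861 to 6269 CPM for RC/-, 1293 to 3304 CPM for RC/- D18 and 2244 to 3644 CPM for RC/- D53. All 15 macrophage markers were higher in RC/-, with sums of 385 to 416 CPM in RC/+, 780 to 1518 CPM for RC/-, 474 to 523 CPM for RC/- D18 and 502 to 802 CPM for RC/- D53. Of 12 collecting duct markers 8 were higher and 2 lower. Their sums were 1368 to 1669 CPM for RC/+, 2827 to 5223 CPM for RC/-, 1647 to 2042 CPM for RC/- D18 and 2060 to 3362 CPM for RC/- D53. In RC/- D53 against RC/- D18, 2 of the 12 were called higher and 0 lower, where 0.266% of all genes were called. Within the D18 line 0.266% of all genes were called. Of the markers, 2 of 12 collecting duct and 1 of 9 skeletal muscle genes were higher in that line, and no other marker passed. Within the D53 line 2.6% of all genes were called. There 6 of 12 collecting duct, 8 of 15 macrophage, 8 of 9 skeletal muscle and 1 of 11 lymphocyte markers were higher and 0 lower. No fibroblast, endothelial, proximal tubule, loop of Henle and distal tubule or podocyte marker passed there. In RC/- against RC/+, 5753 of all 22570 genes were higher and 2744 lower, and of 12 endothelial markers 0 were higher and 5 lower. With TMM factors 7 endothelial markers and 1 fibroblast marker were lower there, and 0 lymphocyte and 0 loop of Henle and distal tubule markers were higher. Of 11 lymphocyte markers 1 was higher and 1 lower, of 8 loop of Henle and distal tubule markers 1 and 6, of 6 podocyte markers 1 and 5, and of 9 skeletal muscle markers tested 0 and 1. All 11 proximal tubule markers were lower, with sums of 9810 to 10690 CPM in RC/+ and 2400 to 5555 in RC/-. None of the fibroblast, macrophage, collecting duct, endothelial or proximal tubule markers was at 0 in any library, and 5 of the target genes (Acta2, Col1a1, Col1a2, Col3a1 and Postn) are also in the fibroblast list. The part of cell composition in the levels of the 9 genes was not tested.

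The genes whose log2 CPM ran most like each of the 9 over the 24 libraries were named among all genes averaging 1 log2 CPM or more. For Tgfb3 they were Col12a1, a fibril-associated collagen gene (Pearson r = 0.984), and Frzb, a secreted Wnt antagonist gene (r = 0.98). For Tgfb2 they were Dcdc2a (r = 0.978) and Cap1 (r = 0.975), for Tgfbr2 Lasp1 (r = 0.979) and Tbc1d9 (r = 0.978), and for Tgfbr1 St6gal1 (r = 0.967) and Ptbp3 (r = 0.963). Ltbp2 ran with Pla2g15 (r = 0.964) and the tight junction gene Cldn4 (r = 0.954), and Inhba with Olfml2b (r = 0.95) and Ripk3 (r = 0.948). Dcdc2a, picked for its likeness to Tgfb2, averaged 49.3 CPM in RC/+, 300.0 CPM for RC/-, 56.4 CPM for RC/- D18 and 113 CPM for RC/- D53. Tgfb1 ran with Ppp2r5c (r = 0.915) and Wipf1 (r = 0.907). Ltbp1 ran with Itga8, an integrin gene of mesangial cells (r = 0.903), and Foxc1 (r = 0.894), and Smad7 with Zfp975 (r = 0.863) and Glt8d1 (r = 0.833). These correlations are descriptions over libraries that share the group differences, and within groups they were 0.712 to 0.918.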

How the data were processed

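Transcripts of 24 whole kidneys were counted by RNA-seq. The authors trimmed paired reads with Trim Galore 0.6.3, aligned them to GRCm38 with STAR 2.5.3a and counted reads per gene with STAR on Ensembl gene models. The deposited values are raw read counts without normalization, and no per-sample column was left unused (0). Groups followed the genotype labels.

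Counts were converted to log2 CPM (total counts, prior count of 2) with edgeR 4.0.16, genes averaging -3 log2 CPM or more were kept, and limma-trend (limma 3.58.1, R 4.3.3) was fitted with 6 group means and no covariate, two-sided, after the study's methods. Alternatives were TMM and DESeq2 size factors, edgeR's quasi-likelihood test, the DESeq2 1.42.0 test, no expression limit, a prior count of 0.5, only the compared groups, sex, libraries 20 to 27 as a covariate and each library left out. Sex was inferred from the counts of Xist and Ddx3y (14 female and 10 male libraries). The fit was tested on simulated data. The reported p-values weigh group differences against the spread between mice within groups, pooled over the 6 groups.

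The 9 genes and the pathway and marker lists were chosen with earlier results of these data known. Besides the 9, up to 2 genes with the largest positive and 2 with the largest negative fold change in RC/- against RC/+ were named per pathway list among those that passed, and for likeness the 2 highest correlations per gene. A target gene that this rule names is not reported here. The target gene Ctgf was matched under its symbol in the count table, Ccn2. Exon lengths came from the GRCm38 annotation and promoters and miRNAs from RefSeq. Promoters of Tgfb3 and Smad7 were not analysed here.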

Additional observations from a re-analysis of the deposited data

Results flagged for a closer look

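The cystic difference was smaller in an edited line than in the unedited line by a test of the difference itself for 5 genes in D18 and 6 in D53. In the D18 interaction the log2 values were -1.81 for Tgfb2, -1.55 for Tgfb3, -1.26 for Inhba, -0.86 for Tgfbr2 and -2.59 for Ltbp2. In the D53 interaction they were -1.06 for Tgfb2, -1.30 for Tgfb3, -1.40 for Inhba, -0.55 for Tgfbr1, -0.81 for Tgfbr2 and -2.07 for Ltbp2. Both contrasts share the unedited kidneys. With the libraries that hold muscle genes as a covariate, the D53 count was 1, Ltbp2. Calls over all genes then fell from 2545 to 403. The Tgfbr1 interaction in D53 passed in 12 of 34 settings.

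A library stood apart from its group. Tgfbr1 was 85.5 CPM in RC/- D18 replicate 22, below the other 4 RC/- D18 kidneys at 99.8 to 105 CPM. It was the only library to stand apart among 27 combinations of gene and group of 5, and chance alone would set about 1 of every 20 combinations apart.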

How the results depend on the processing

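No paired analysis was possible because each mouse has its own replicate number and the groups share none. Ltbp2, Tgfb2, Tgfb3, Inhba, Tgfbr1 and Tgfbr2 passed in all 35 settings run for RC/- against RC/+ and for RC/- D18 against RC/- (34 alternatives and the values reported). The number of the 9 genes called for RC/- D53 against RC/- was 5 instead of 8 with libraries 20 to 27 as a covariate, and for the D53 interaction 1 instead of 6, while calls over all genes fell from 6805 to 1796 and from 2545 to 403. The cause was not tested. Within the D18 line it was 1 instead of 0 in the DESeq2 test and 0 to 1 with a library left out. Within the D53 line it was 2 instead of 1 when only the compared groups were fitted. For RC/- D53 against RC/- D18 it was 0 instead of 1 with only those groups, 0 between libraries 20 to 27 (an alternative chosen after the data were seen, with fewer samples) and 0 to 1 with a library left out. Leaving out libraries 20 to 27, also chosen after the data were seen, gave no value for the D53 comparisons.

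Single libraries decided calls near the threshold. The Inhba interaction in D18 passed in 20 of 35 settings. Among those that lost the call were the fits without RC/+ replicate 4 or 6, RC/+ D18 replicate 8 or 9, RC/- replicate 13, 16 or 17, or RC/- D18 replicate 20, 21 or 22 (-1.27 to -1.09). Others were libraries 20 to 27 as a covariate or left out (-0.67) and the edgeR test (-1.15). The Inhba interaction in D53 lost its call without RC/+ replicate 6 or RC/+ D53 replicate 11 or 12 (-1.40 to -1.24). The Tgfbr1 interaction in D53 passed in 12 of 34 settings and lost its call without RC/+ replicate 4, 5 or 6, RC/+ D18 replicate 8, RC/+ D53 replicate 10, 11 or 12, RC/- replicate 15, 16 or 17, RC/- D18 replicate 18, 20 or 21, or RC/- D53 replicate 23, 24 or 26 (-0.60 to -0.44). That in D18 passed in 5 of 35 settings, among them without RC/+ D18 replicate 7, RC/- replicate 13 or 14, or RC/- D18 replicate 19 (-0.65 to -0.52). The Ltbp2 interaction in D53 lost its call without RC/+ replicate 4 (-1.53) or RC/+ D53 replicate 10 (-1.77). Tgfb1 in RC/- D53 against RC/- passed in 23 of 34 settings. Among those that lost the call were the fits without RC/- replicate 16 or 17 or RC/- D53 replicate 24 or 26 (-0.28 to -0.23). Ltbp1 lost its call in RC/- D18 against RC/- without RC/- replicate 15, 16 or 17 or RC/- D18 replicate 18, 19 or 20 (0.32 to 0.51), and in RC/- D53 against RC/- without RC/- replicate 15 or 17 or RC/- D53 replicate 23 (0.39 to 0.55).

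No call changed direction, but values near 0 that never passed changed sign. Smad7 in RC/- D18 against RC/- was 0.11 with TMM factors, 0.10 with DESeq2 size factors, 0.085 with libraries 20 to 27 as a covariate or left out, 0.11 in edgeR and 0.10 in DESeq2, and -0.055 to 0.029 with a library left out. Smad7 in RC/- D53 against RC/- was 0.073, 0.066 and 0.15 with TMM factors, DESeq2 size factors and the covariate, 0.079 in edgeR and 0.072 in DESeq2, and -0.066 to 0.049 with a library left out. Smad7 in RC/- D53 against RC/- D18 was 0.062 with the covariate and between libraries 20 to 27, and -0.058 to 0.058 with a library left out. Its D53 interaction was 0.035, 0.027 and 0.093 with TMM factors, DESeq2 size factors and the covariate, 0.051 in edgeR and 0.042 in DESeq2, and -0.18 to 0.069 with a library left out. Tgfb1 in RC/- D53 against RC/+ D53 was -0.0013 with TMM factors, -0.0053 with DESeq2 size factors and -0.00040 in DESeq2, and -0.065 to 0.11 with a library left out. Ltbp1 there was -0.013, -0.017, -0.012 and -0.016 with TMM factors, DESeq2 size factors, edgeR and DESeq2, and -0.017 to 0.067 with a library left out. Ltbp2 in RC/- D53 against RC/- D18 was -0.073 with the covariate and between libraries 20 to 27. With a library left out, Tgfb1 and Ltbp1 in RC/- D18 against RC/+ D18 were -0.0082 to 0.14 and -0.080 to 0.30, and Ltbp1 in RC/- D53 against RC/- D18 was -0.056 to 0.17. Depth limits Ltbp2 most, at 22 counts in its lowest library.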
